A study of Mus musculus with 9 samples.

Results

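The RNA-binding proteins of the Rbm, Srsf and Hnrnp families were compared between wild-type, Dgcr8 knockout and Dicer knockout mouse oocytes. A gene belonged to the set if a probe set of the array was annotated to that gene alone and its symbol began with Hnrnp, or with Rbm or Srsf followed by a digit. Of 19938 genes with such a probe set, 62 met this rule: 35 Rbm, 10 Srsf and 17 Hnrnp genes. For a gene with more than 1 probe set, the one with the highest mean over the 9 arrays was used. All 62 were matched to RefSeq by Entrez ID; 60 are protein-coding, Rbm8a2 is a pseudogene, and Rbm3os is a long non-coding RNA that overlaps Rbm3 on the opposite strand.

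Primary transcripts are cut by the spliceosome, and the choice of exons is set in part by proteins that bind the transcript. SR proteins, encoded by the Srsf genes, carry a domain rich in arginine and serine and mostly promote the use of exons to which they bind; hnRNP proteins coat nascent transcripts, often repress splice sites, and also act in export, stability and translation. The Rbm genes share only an RNA recognition motif and a naming scheme: some encode spliceosome subunits, others act in RNA methylation, nuclear decay or ribosome assembly, or regulate transcripts of single tissues. Fully grown oocytes do not transcribe, so the mRNA of an ovulated egg was made earlier, during oocyte growth. Its level reflects how much was made then, and storage and decay since. Dgcr8 is required to make most microRNAs, whereas Dicer is required for microRNAs and also for endogenous small interfering RNAs, which are abundant in mouse oocytes.

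Each genotype was represented by 3 arrays of total RNA from ovulated eggs at metaphase II (MII). All 3 genotypes were of the C57BL/6 strain and had the same hormone treatment: 7.5 IU of PMSG, then 7.5 IU of hCG, with oviducts taken 14 to 16 h after hCG. Cumulus cells were removed with hyaluronidase (0.3 mg/ml) and washing. The sources used here do not say how the knockouts were made, whether a Cre driver was used, how old the mice were, or how many eggs and mice stand behind an array. The labels call the 3 arrays of each genotype biological replicates, without saying whether each came from its own mice; the p-values measure the spread between these samples. The array is a 1-colour oligonucleotide array, and the values are log2 signals after GCRMA, a background correction and normalization across arrays.

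The targeted transcripts followed the labels. Dgcr8 was at 8.96 ± 0.10 (mean log2 signal ± SD, n = 3, as for all means here) in wild-type and 5.71 ± 0.26 in Dgcr8 knockout eggs, and Dicer1 at 11.67 ± 0.01 in wild-type and 10.72 ± 0.13 in Dicer knockout eggs. Dgcr8 was at 8.46 ± 0.23 in Dicer knockout eggs, below wild-type on every array, with a change of -0.50 (95% interval -0.84 to -0.16) that was not called (limma adjusted p = 0.0644). The median signal of an array lay between 5.48 and 5.58. The mean over 12 oocyte marker genes was 11.19 to 11.29 in wild-type, 11.15 to 11.29 in Dgcr8 knockout and 11.30 to 11.45 in Dicer knockout arrays, and 2 of the 12 (Nobox and Zp2) were called higher in Dicer knockout. The mean over 14 cumulus and granulosa markers was 5.51 to 5.57, 5.49 to 5.56 and 5.51 to 5.58 in the same order, with Gata4 called higher in Dicer knockout among 13 tested. The mean over 7 immune and blood markers was 4.75 to 4.89, 4.79 to 4.90 and 4.83 to 5.37, with Cd68 called higher among 6 tested, and that over 7 oviduct markers was 6.06 to 6.10, 6.00 to 6.25 and 5.93 to 6.06, with Myh11 called lower (log2 change -0.46). The 5.37 came from Dicer knockout replicate 3, where Lyz2 was at 6.13, against 3.68 and 3.93 on Dicer knockout replicates 1 and 2. In wild-type and Dgcr8 knockout arrays Lyz2 was between 3.77 and 4.16, and its change was not called. The part of these marker genes in the results below was not tested.

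Of the 62 genes, 60 reached a log2 signal of 4 on at least 3 arrays and were tested, among 17324 genes in all. Each of the 60 was above that signal on all 9 arrays, so none entered through 1 genotype alone. The others, Rbm11 (3.71 ± 0.28 in wild-type), a splicing regulator of the testis and brain, and the pseudogene Rbm8a2 (2.04 ± 0.13), were left untested. Signals of different probe sets depend on probe affinity, so they show that a gene is bright on the array and do not rank transcripts. In wild-type eggs the brightest Rbm probe sets were those of Rbm38 (11.75 ± 0.02), Rbm25 (11.51 ± 0.07), Rbm18 (11.27 ± 0.03) and Rbm3 (11.10 ± 0.06). The brightest Srsf probe sets were those of Srsf3 (11.19 ± 0.04), Srsf5 (11.00 ± 0.03), Srsf10 (10.84 ± 0.02) and Srsf2 (10.83 ± 0.06), and the dimmest those of Srsf9 (6.97 ± 0.22) and Srsf12 (4.53 ± 0.07). Among the Hnrnp genes, Hnrnpul2 (11.86 ± 0.02), Hnrnpk (11.46 ± 0.02), Hnrnpu (11.38 ± 0.01) and Hnrnpd (11.34, SD under 0.01) were brightest, and Hnrnpa0 (6.81 ± 0.14) and Hnrnpll (6.50 ± 0.02) dimmest.

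The first question was which of these genes differed between Dicer knockout and wild-type eggs. Of the 60, 10 fell and 1 rose in Dicer knockout: Rbm47, Rbm19, Rbm26, Rbm12b2, Rbm39, Rbm22, Rbm18, Srsf3, Hnrnpul1 and Hnrnpul2 were lower and Hnrnpm was higher. A gene was called where limma's moderated test gave an adjusted p under 0.05 after Benjamini-Hochberg adjustment over all 17324 genes. The 11 calls are 18.3% of the members, against 11.3% of all genes tested; lower calls were 10 of 60 against 6.47% of all genes, and higher calls 1 of 60 against 4.87%. The lower calls were 6 without wild-type replicate 1 or 3 and 16 with quantile normalization. The higher calls were 0 without either of those arrays, 2 without Dgcr8 or Dicer knockout replicate 3, and 4 with a floor of 6 on the log2 signal. In either direction, 10% of members were called without wild-type replicate 1 or 3, against 8.01% and 7.16% of all genes. The shares were 18.3% without Dgcr8 or Dicer knockout replicate 3, against 10.4% and 10.7%. They were 28.3% against 14.2% with quantile normalization and 27.8% against 21.6% with the floor of 6. With that floor, 906 of 10181 genes were called higher. Only Rbm47 changed by at least 2-fold. The median log2 change was -0.07 over the members and -0.03 over all genes, and 39 of the 60 changes were below 0. In RNA pooled from eggs, less transcript in each egg and fewer eggs holding it cannot be told apart.

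**Figure D1:**
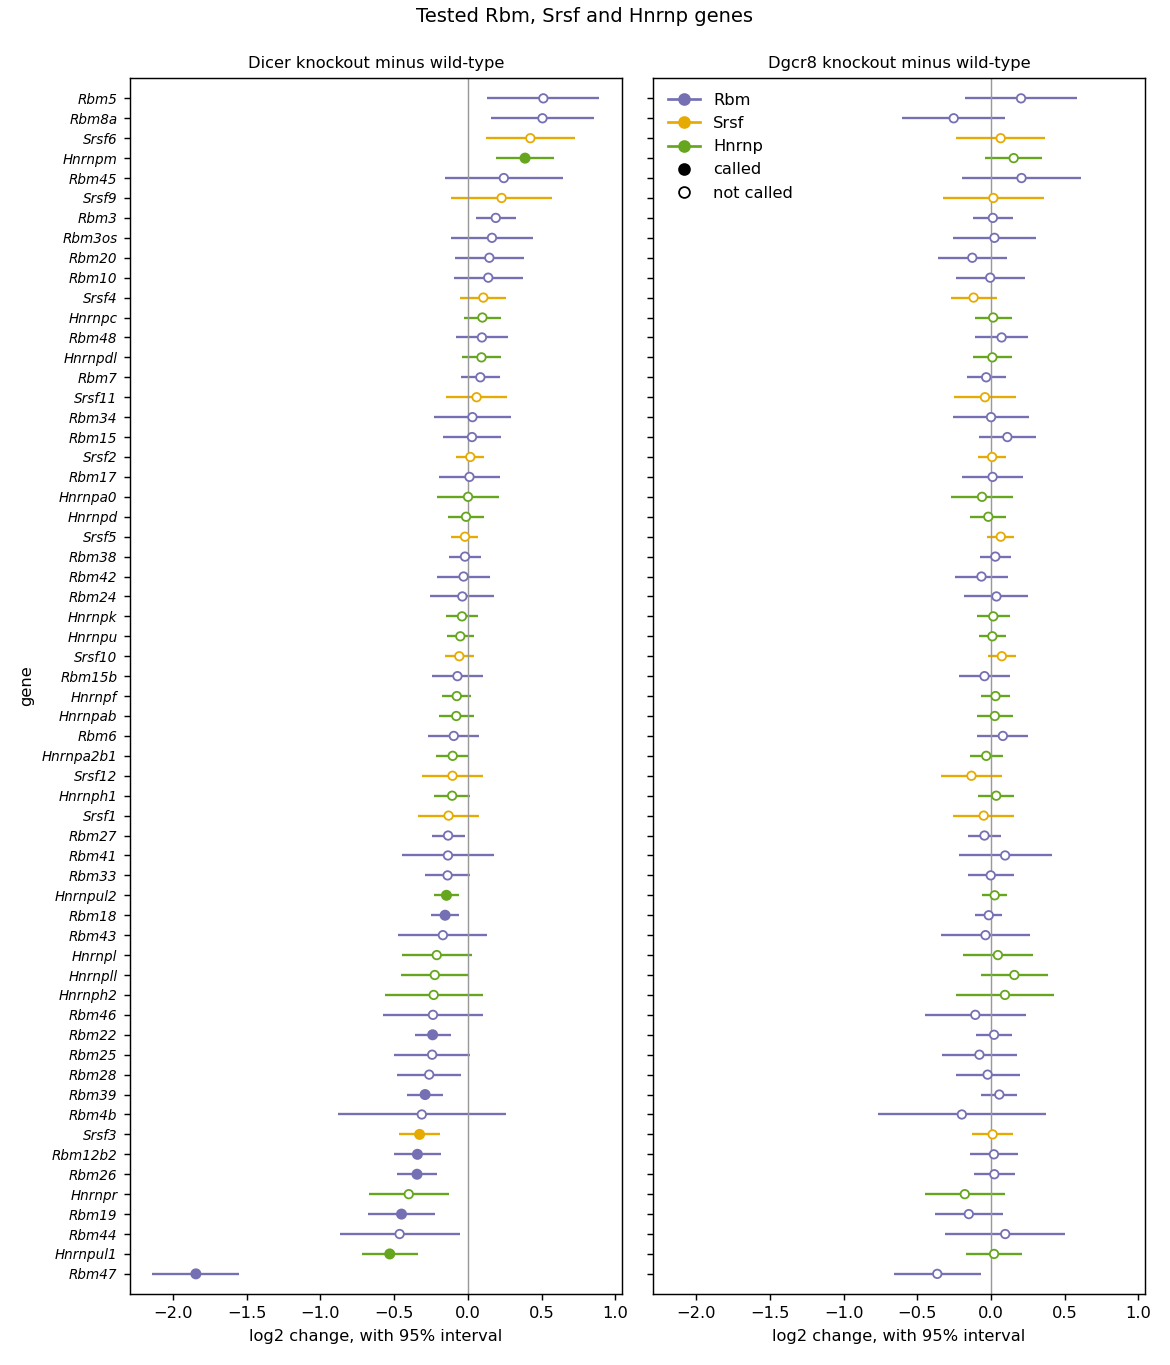
Log2 change with 95% interval of each of the 60 tested Rbm, Srsf and Hnrnp genes in Dicer knockout and in Dgcr8 knockout eggs, each minus wild-type (n = 3 arrays a genotype). Rbm47, at -1.85 in Dicer knockout, lies apart from the others, whose changes lie between -0.53 and 0.51; no Dgcr8 knockout change passed the test.

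The share of called genes differed with brightness. Among all genes, 3.04% were called with a mean log2 signal under 6, 14.2% from 6 to 8, 21% from 8 to 10 and 19.3% at 10 and above. The members called in the same ranges were 0 of 6, 2 of 16, 3 of 11 and 6 of 27. Of the 60 members, 27 lay in the brightest range, which held 1834 of the 17324 genes, so the comparison with 11.3% sets members against genes that were mostly dimmer. The same limit holds for the family, subgroup and list shares below. Their median wild-type signals lay between 7.07 and 10.29, against 6.40 over all genes. Without regard to the test, all 3 Dicer knockout values lay above all 3 wild-type values in 7 members and below them in 21, against 10.0% and 16.1% of all genes.

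Rbm47 encodes an RNA-binding protein of epithelial and endodermal tissues that stabilises transcripts, regulates splicing and acts as a cofactor of cytidine deamination in apolipoprotein B mRNA. Its log2 signal on the 3 arrays of each genotype was 6.95, 7.21 and 6.96 in wild-type, 6.82, 6.53 and 6.68 in Dgcr8 knockout, and 5.01, 5.13 and 5.45 in Dicer knockout. Every Dicer knockout array was more than 1 log2 unit below every array of the other genotypes, and every Dgcr8 knockout array was below every wild-type array. The change from wild-type to Dicer knockout was -1.85 ± 0.13 (SE; 95% interval -2.14 to -1.55; limma adjusted p = 1.88e-05), which is 3.59-fold lower. It was called under each of 19 alternative settings, leaving out any of the 9 arrays included, with a change between -1.97 and -1.75. The Dicer knockout signals lie below the median of their arrays; signals near background understate a fold, and no detection calls were used here.

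Between wild-type and Dgcr8 knockout, Rbm47 changed by -0.36 (95% interval -0.66 to -0.07), with an unadjusted p of 0.0204 and a limma adjusted p of 1. The difference between the 2 knockouts was itself tested: Dicer knockout minus Dgcr8 knockout was -1.48 (95% interval -1.78 to -1.19; limma adjusted p = 8.11e-05). This gene is on chromosome 5, and RefSeq gives it 3 starts with a promoter window. The members as a set mostly have CpG-rich promoters, and those of Rbm47 are shown to set them beside 2 other members with calls, Rbm39 and Hnrnpm. The letters are the 250 bases before the outermost annotated start (RefSeq, GRCm38.p6, all on the minus strand, written 5′ to 3′), at chr5:66151955-66152204 for Rbm47, chr2:156180239-156180488 for Rbm39 and chr17:33685459-33685708 for Hnrnpm, all wholly outside the annotated gene. Capitals mark a match on either strand to 1 of 3 motifs, TATAAA (the TATA box), CCAAT (the CCAAT box) or CCGGAAG (an ETS factor core), none of which overlaps another here.
Rbm47: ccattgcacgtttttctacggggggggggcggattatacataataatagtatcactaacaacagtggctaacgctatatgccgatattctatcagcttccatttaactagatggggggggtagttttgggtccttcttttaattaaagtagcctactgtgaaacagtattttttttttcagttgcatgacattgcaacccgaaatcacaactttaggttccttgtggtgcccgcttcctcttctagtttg
Rbm39: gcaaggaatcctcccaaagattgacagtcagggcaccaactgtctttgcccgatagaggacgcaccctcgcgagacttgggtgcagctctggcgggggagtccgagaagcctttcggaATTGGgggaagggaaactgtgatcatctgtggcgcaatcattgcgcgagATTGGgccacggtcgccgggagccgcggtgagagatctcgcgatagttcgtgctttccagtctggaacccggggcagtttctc
Hnrnpm: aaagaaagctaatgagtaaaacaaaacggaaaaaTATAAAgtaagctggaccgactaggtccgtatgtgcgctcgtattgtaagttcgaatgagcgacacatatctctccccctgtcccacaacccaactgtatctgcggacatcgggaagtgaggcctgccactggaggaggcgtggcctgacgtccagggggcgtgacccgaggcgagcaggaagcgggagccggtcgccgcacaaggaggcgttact
The Rbm47 window holds 7 CpG dinucleotides (observed over expected 0.648) and no match, and the other windows of this gene hold 11 (0.794) and 1 (0.0758), also with no match. The Rbm39 window shown holds 19 CpG (0.884) and 2 CCAAT matches, and the second window of Rbm39 holds 28 CpG (0.969) and no match. The Hnrnpm window holds 19 CpG (1.01) and 1 TATAAA match. Over the families, 52 of the 62 genes had 68 such windows. Their median was 19 CpG, against 6 in all 32851 windows of the table, and the ratio was at least 0.6 in 86.8% against 34.0%. A CCAAT match lay in 42.6% of the members' windows against 33.8% of all, a CCGGAAG match in 19.1% against 6.9%, and a TATAAA match in 8.8% against 12.4%. All windows of the table were taken, whatever the RNA type or signal of the gene. Of the 62 members, 60 are protein-coding, and the median wild-type signal was 9.71 over tested members and 6.40 over all genes tested. Whether these shares are particular to the families was therefore not tested. Each window was counted separately, and some windows of the same gene overlap. The shares describe the letters only, and no binding or promoter activity was measured.

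**Figure D2:**
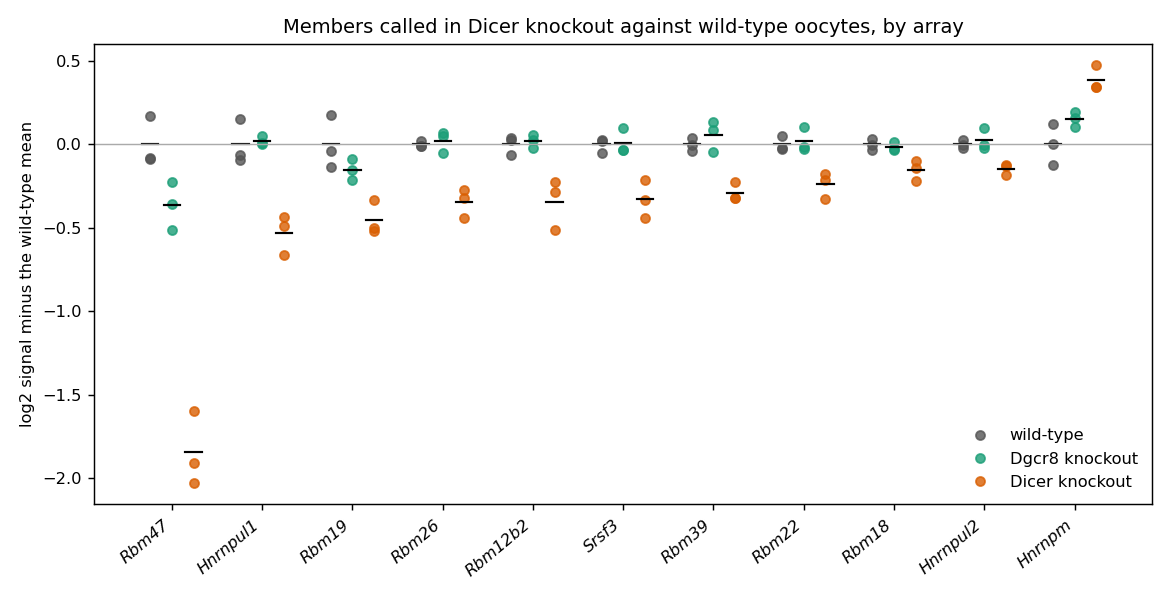
Log2 signal minus the wild-type mean on each of the 9 arrays for the 11 members called in Dicer knockout against wild-type, with points for arrays, short bars for group means and colours for the 3 genotypes. In each of the 11 genes the 3 Dicer knockout points lie to 1 side of the other 6, by the widest margin in Rbm47.

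Of the Srsf genes, 1 of 10 tested fell, none rose, and the median log2 change was -0.0016 (limma), against 6.47% lower, 4.87% higher and a median of -0.03 over all genes. The gene that fell was Srsf3, a small SR protein that acts in splicing, mRNA export and the end of transcripts and is required for early mouse development. Its signal was 11.14, 11.21 and 11.21 in wild-type, 11.29, 11.15 and 11.15 in Dgcr8 knockout and 10.75, 10.85 and 10.98 in Dicer knockout arrays. The Dicer knockout arrays lay below all 6 others, with a change from wild-type of -0.33 ± 0.062 (SE; limma adjusted p = 0.00731). The probe sets of this gene differed: fitted with all other probe sets, the one used gave -0.33 (adjusted p = 0.00855) and another -0.29 ± 0.069 (adjusted p = 0.0227), but the third, at 8.41 in wild-type, gave 0.03 ± 0.12 (adjusted p = 0.920). With the mean of its probe sets the change was -0.20 and the call was lost (adjusted p = 0.0898). Where each of the 3 probe sets lies in the genome was not checked. Which of them measures Srsf3 itself is therefore uncertain, and so is the fall of this gene.

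Srsf6, an SR protein that acts on alternative exons, missed the threshold on the higher side; it is named here after its values were seen. Its signal was 7.36, 7.22 and 7.25 in wild-type, 7.17, 7.23 and 7.62 in Dgcr8 knockout and 7.74, 7.85 and 7.52 in Dicer knockout arrays. The change from wild-type to Dicer knockout was 0.42 ± 0.13 (limma adjusted p = 0.0750), and it passed without Dgcr8 knockout replicate 3 (adjusted p = 0.0366) and with a floor of 6 (0.0494). The other 8 Srsf genes had changes between -0.13 and 0.23, none called. Srsf2, a core SR protein that binds exon enhancers, had a change of 0.02 (95% interval -0.08 to 0.11), and Srsf5 one of -0.02 (95% interval -0.11 to 0.07).

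Of the 17 Hnrnp genes, 2 fell and 1 rose (17.6% called, against 11.3% of all genes), and the median log2 change was -0.08 (limma). Hnrnpul1, a relative of hnRNP U that binds RNA and takes part in the DNA damage response, had signals of 9.52, 9.55 and 9.77 in wild-type, 9.62, 9.61 and 9.66 in Dgcr8 knockout and 9.18, 8.95 and 9.12 in Dicer knockout arrays. All Dicer knockout values were below the 6 others. The change was -0.53 ± 0.084 (95% interval -0.72 to -0.34; limma adjusted p = 0.00290), 1.44-fold lower, and it was called under each of the 19 alternatives.

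Hnrnpul2, of the same subfamily, had signals of 11.84, 11.86 and 11.89 in wild-type, 11.86, 11.84 and 11.96 in Dgcr8 knockout and 11.74, 11.68 and 11.73 in Dicer knockout arrays. The groups did not overlap, but the change was small, -0.15 ± 0.039 (limma adjusted p = 0.0377). The call was lost in 9 of the 19 alternatives, 7 of them leaving out 1 array: Dgcr8 knockout replicate 1 (adjusted p = 0.0528), Dicer knockout replicates 1 (0.0676), 2 (0.0921) or 3 (0.0570), and wild-type replicates 1 (0.0772), 2 (0.106) or 3 (0.136). The others were median centring (0.178) and eBayes without the trend and robust options (0.195).

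Hnrnpm was the only member called higher. It encodes a protein that binds GU-rich sequence and regulates alternative exons. Its signals were 8.15, 8.27 and 8.02 in wild-type, 8.34, 8.25 and 8.31 in Dgcr8 knockout and 8.62, 8.49 and 8.49 in Dicer knockout arrays. The Dicer knockout values lay above both other genotypes, while Dgcr8 knockout and wild-type values overlapped. The change was 0.39 ± 0.087 (95% interval 0.19 to 0.58; limma adjusted p = 0.0174), 30.8% higher. It was not called without wild-type replicate 1 (adjusted p = 0.0564) or 3 (0.0734) or without Dicer knockout replicate 1 (0.0618), and the difference from Dgcr8 knockout, 0.23, was not called (adjusted p = 0.114).

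Several core hnRNP genes had narrow intervals around 0; Hnrnpc and Hnrnpa2b1 are named after their values were seen. The change was -0.01 for Hnrnpd (95% interval -0.13 to 0.11), -0.04 for Hnrnpk (-0.15 to 0.07), -0.05 for Hnrnpu (-0.14 to 0.04), 0.10 for Hnrnpc (-0.03 to 0.22) and -0.10 for Hnrnpa2b1 (-0.21 to 0.01). For these genes a change of 0.25 in either direction lies outside the 95% interval. Hnrnpr, which missed the threshold and is named after its values were seen, had a change of -0.40 (limma adjusted p = 0.0632).

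Hnrnpa1 and Hnrnpa3, among the most studied hnRNP genes, were not members, because their probe sets are annotated to several genes, mostly pseudogenes with near-identical sequence. In all, 20 probe sets named a gene of the 3 families together with another gene, and 19 were bright enough to test. None was called in Dicer knockout against wild-type by limma, while 5 had an unadjusted p under 0.05, and all 19 changes were below 0. They lay between -0.21 and -0.03 for the 5 probe sets of Hnrnpa1 and between -0.17 and -0.04 for the 9 of Hnrnpa3, of which a pair held identical values. Single probe sets gave -0.20 for Rbm14, -0.17 for Rbm12b1 with Rbm12b2, -0.16 for Hnrnph3, -0.13 for Rbm12 and -0.10 for Rbm4. Which of the named genes a shared probe set measures is uncertain.

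Of the 33 Rbm genes tested, 7 fell and none rose (21.2% called), against 6.47% lower and 4.87% higher over all genes, with a median log2 change of -0.10 against -0.03 (limma). Among the 10 that encode spliceosome or exon junction proteins, 2 fell (20%, against 11.3% of all genes called in either direction). Rbm39, a partner of the U2 snRNP auxiliary factor and a transcriptional coactivator, had signals of 10.85, 10.89 and 10.93 in wild-type, 10.97, 10.84 and 11.02 in Dgcr8 knockout and 10.57, 10.57 and 10.66 in Dicer knockout arrays. The Dicer knockout values were below all others, and the change was -0.29 ± 0.055 (limma adjusted p = 0.00713), called under each of the 19 alternatives. Rbm22, which contacts the catalytic RNA core of the spliceosome, had signals of 10.88, 10.87 and 10.95 in wild-type, 11.00, 10.87 and 10.89 in Dgcr8 knockout and 10.72, 10.69 and 10.57 in Dicer knockout arrays. Again the Dicer knockout values were lowest. The change was -0.24 ± 0.055 (limma adjusted p = 0.0191). It was not called without wild-type replicate 1 (adjusted p = 0.0523) or 3 (0.0835) or with arrays centred on their median (0.0586). The call was also lost with eBayes without the trend and robust options (0.0611).

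Rbm8a, the Y14 subunit of the exon junction complex, separated the 2 knockouts. Its signal was 9.75, 9.68 and 9.45 in wild-type, 9.36, 9.26 and 9.50 in Dgcr8 knockout and 10.14, 10.49 and 9.77 in Dicer knockout arrays. All Dicer knockout values were above the other 6, and the Dicer knockout group was the most spread. The change from wild-type, 0.51 ± 0.16, missed the threshold (limma adjusted p = 0.0696) and passed it without Dicer knockout replicate 3 (0.69; adjusted p = 0.0105) and with a floor of 6 (0.0430). The difference between Dicer and Dgcr8 knockout was 0.76 (95% interval 0.41 to 1.11; limma adjusted p = 0.0106), called under each of the 19 alternatives. Rbm8a2 is a pseudogene copy of Rbm8a, and whether the Rbm8a probe set also takes up its transcript was not tested. Rbm5, a regulator of the early spliceosome named after its values were seen, also had a change of 0.51 (SE 0.17), with signals of 7.27, 6.97 and 6.83 in wild-type, 7.16, 6.99 and 7.53 in Dgcr8 knockout and 7.76, 7.52 and 7.32 in Dicer knockout arrays, and was not called (adjusted p = 0.0892).

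The members that act in RNA methylation, nuclear decay, the nucleolus or the cold response numbered 9 tested, of which 2 fell (22.2%, against 11.3%). Rbm26, part of a complex that links nuclear transcripts to the exosome, had signals of 9.84, 9.86 and 9.83 in wild-type, 9.89, 9.79 and 9.92 in Dgcr8 knockout and 9.53, 9.57 and 9.40 in Dicer knockout arrays. The drop was larger than the spread within any genotype, with a change of -0.35 ± 0.062 (limma adjusted p = 0.00568), called under each of the 19 alternatives. Rbm27, its close relative, named after its values were seen, had a change of -0.13 (adjusted p = 0.129). Rbm19, a nucleolar protein of ribosomal RNA processing that is required before implantation in mice, had signals of 6.60, 6.81 and 6.50 in wild-type, 6.42, 6.49 and 6.55 in Dgcr8 knockout and 6.12, 6.31 and 6.14 in Dicer knockout arrays. The Dicer knockout values were lowest, and the change was -0.45 ± 0.10 (limma adjusted p = 0.0190). It was not called without wild-type replicate 2 (adjusted p = 0.0722) or Dicer knockout replicate 1 (0.0646) or 3 (0.0535), and the difference from Dgcr8 knockout, -0.30, was not called (0.0874).

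The cold-induced Rbm3 had 3 probe sets, whose changes from wild-type to Dicer knockout lay between 0.19 and 0.20. The one used had signals of 11.03, 11.14 and 11.14 in wild-type, 11.04, 11.15 and 11.15 in Dgcr8 knockout and 11.17, 11.33 and 11.37 in Dicer knockout arrays. The wild-type and Dicer knockout values do not overlap. It missed the threshold (limma adjusted p = 0.0770) but passed it with a floor of 6 (0.0475) and without Dicer knockout replicate 1 (0.25; 0.0233). In the fit of all named probe sets, the other 2 were called (adjusted p = 0.0306 and 0.0355) and the one used was not (0.0845), and the mean of the 3 was called (0.0367). Its antisense transcript Rbm3os had a change of 0.16 and was not called. Rbm15b, a subunit of the RNA methyltransferase complex, had 1 probe set at -0.07 and another at 0.40 ± 0.19 (adjusted p = 0.240), neither called; those of Srsf10 were at -0.06 and 0.003.

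**Figure D3:**
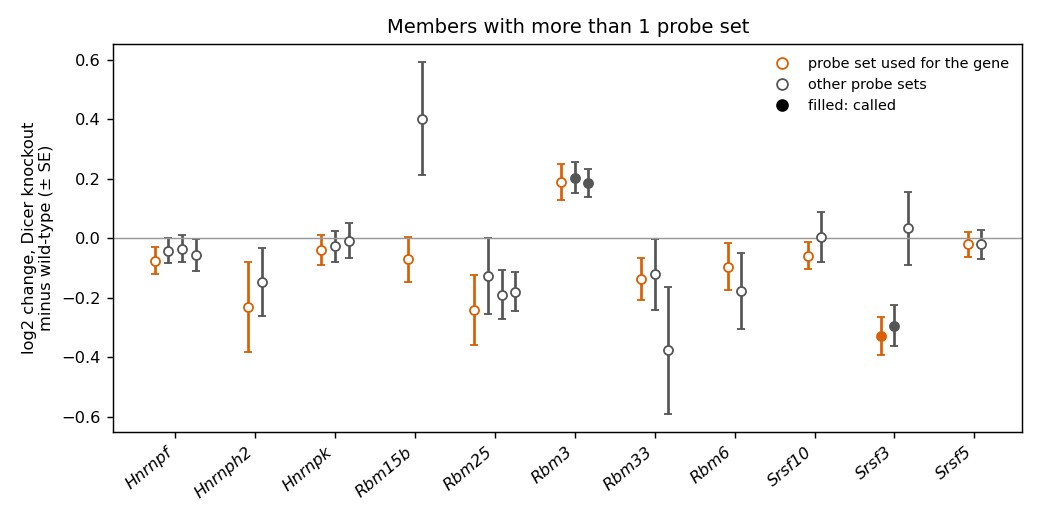
Log2 change ± SE from wild-type to Dicer knockout for each probe set of the 11 members with more than 1, fitted together with all named probe sets. The probe sets of Srsf3 lie at -0.33, -0.29 and 0.03, while those of Rbm3, Hnrnpk and Rbm25 each lie on 1 side of 0.

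Of the 8 tested genes that regulate transcripts of germ cells, muscle or other tissues, Rbm47 alone was called (12.5%, against 11.3% of all genes). Rbm38, a target of p53 that regulates mRNA stability, had a change of -0.02 (95% interval -0.13 to 0.09). Rbm46, which is needed for germ cell differentiation, had a change of -0.24 (-0.58 to 0.11), and Rbm44, a protein of germ cell bridges, one of -0.46 (-0.87 to -0.06; limma adjusted p = 0.152); both are named after their values were seen. Of the 8, 3 had a 95% interval within 0.5 of 0. Among the 6 other Rbm genes, 2 fell (33.3%, against 11.3% of all genes, which were mostly dimmer), a share that rests on 2 genes. Rbm12b2 had signals of 10.74, 10.63 and 10.72 in wild-type, 10.67, 10.72 and 10.75 in Dgcr8 knockout and 10.47, 10.18 and 10.41 in Dicer knockout arrays. Its change was -0.34 ± 0.072 (adjusted p = 0.0128), lost without wild-type replicate 1 (0.0526) or 3 (0.0543); its near copy Rbm12b1 may share probes.

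Rbm18 had signals of 11.30, 11.24 and 11.27 in wild-type, 11.29, 11.24 and 11.24 in Dgcr8 knockout and 11.05, 11.13 and 11.17 in Dicer knockout arrays. It was the least stable of the calls by number of alternatives: the change of -0.15 ± 0.042 (limma adjusted p = 0.0405) lost its call in 12 of 19. Of these, 8 left out 1 array: Dgcr8 knockout replicates 1 (adjusted p = 0.0551), 2 (0.0586) or 3 (0.0549), Dicer knockout replicates 1 (0.117) or 2 (0.0606), and wild-type replicates 1 (0.145), 2 (0.0742) or 3 (0.116). It was also lost with median centring (0.0749), with eBayes without the trend and robust options (0.164) and in a fit of the compared genotypes alone (0.0827).

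In Dgcr8 knockout against wild-type, limma called none of the 60 members, against 0.0231% of all genes, which is 4 of 17324. Only Rbm47 had an unadjusted p under 0.05. The median log2 change was 0.01 over the members and -0.003 over all genes, and no member changed by more than 0.36 in either direction. The 95% interval lay within 0.5 of 0 for 54 of the 60 and within 1 for all of them, so a 2-fold change of any tested member lies outside these intervals. The groups did not overlap in 4 members, Hnrnpll and Srsf10 higher and Rbm20 and Rbm47 lower (Rbm20 named after its values were seen), against 6.54% of all genes.

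The comparison of the 2 knockouts, which tests where they differ, called 10 of 60 members (16.7%, against 13.4% of all genes), 9 lower and 1 higher in Dicer knockout, against 7.92% and 5.48% of all genes (limma). With quantile normalization the lower calls were 18, and the higher calls were 3 without Dgcr8 knockout replicate 3 or Dicer knockout replicate 1. In either direction, these settings called 31.7%, 18.3% and 21.7% of members, against 16.6%, 9.91% and 10.3% of all genes. The comparison of the knockouts shares the Dicer knockout arrays with the first comparison, so its calls are not a second test of it. Of the 10 genes that fell against wild-type, 8 were also lower than in Dgcr8 knockout: the difference was -0.55 for Hnrnpul1 (adjusted p = 0.00220), -0.37 for Rbm26 (0.00384), -0.35 for Rbm39 (0.00256), -0.36 for Rbm12b2 (0.00861), -0.34 for Srsf3 (0.00569), -0.26 for Rbm22 (0.0114) and -0.17 for Hnrnpul2 (0.0165), beside Rbm47. Rbm19 and Rbm18 (-0.14; adjusted p = 0.0544) were not called. The calls of this contrast that wild-type did not give were Rbm8a and Hnrnpll, a regulator of CD45 splicing in lymphocytes. Hnrnpll had signals of 6.52, 6.49 and 6.49 in wild-type, 6.65, 6.69 and 6.63 in Dgcr8 knockout and 6.49, 6.22 and 6.11 in Dicer knockout arrays, a difference between knockouts of -0.38 (95% interval -0.61 to -0.15; adjusted p = 0.0352). It lost its call in 10 of 19 alternatives, 8 of which left out 1 array (adjusted p 0.0545 to 0.0967; every array except Dicer knockout replicate 1).

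The rest of the splicing pathway was followed through 4 lists with 164 genes, of which 150 were tested. In Dicer knockout against wild-type, 16 fell and 3 rose (12.7%, against 11.3% of all genes), with a median log2 change of -0.05. The lower calls were 8 without wild-type replicate 1, 9 without wild-type replicate 3 and 31 with quantile normalization; the higher calls were 6 without Dicer knockout replicate 2, 2 without wild-type replicate 2 or 3 or Dicer knockout replicate 1, and 8 with a floor of 6. Over all genes, the 1121 lower calls became 726 without wild-type replicate 1, 638 without replicate 3 and 1646 with quantile normalization. The 843 higher calls over all genes became 861 without Dicer knockout replicate 2 and 906 with the floor of 6. They were 633, 600 and 619 without wild-type replicate 2 or 3 or Dicer knockout replicate 1. In Dgcr8 knockout against wild-type none of the 150 was called by limma, and 6 had an unadjusted p under 0.05. In the direct contrast of Dicer with Dgcr8 knockout, 9 were higher and 22 lower (20.7%, against 13.4% of all genes), with a median of -0.06. Of 26 tested partners and kinases of SR proteins, 5 fell and 1 rose (23.1%; median -0.10): Luc7l3, a U1 snRNP-associated protein, changed by -0.26 (adjusted p = 0.00682), Acin1, a protein of the exon junction periphery, by -0.37 (0.0135), and Prpf4b, a kinase of the spliceosome, by -0.52 (0.0173), with Scaf4 (named after its values were seen) and Srek1 also lower. Acin1 was not called without wild-type replicate 2 (0.0555), and Prpf4b not without wild-type replicate 1 (0.0645) or 2 (0.0658) or in a fit of the compared genotypes alone (0.0502). Srek1, an SR-related protein, changed by -0.34 (adjusted p = 0.0307), and it was not called without Dicer knockout replicate 2 (0.0800) or 3 (0.0512) or wild-type replicate 1 (0.0906) or 3 (0.122), with arrays centred on their median (0.0623) or in a fit of the compared genotypes alone (0.0502). The gene that rose was Srpk2, an SR protein kinase named after its values were seen (0.25; adjusted p = 0.0379).

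Of 64 tested spliceosome core genes, 4 fell and 1 rose against wild-type (7.81%, against 11.3% of all genes), with a median of -0.03. Against Dgcr8 knockout, 5 were lower and 7 higher (18.8%, against 13.4% of all genes). Of all genes, 7.92% were lower and 5.48% higher in that contrast. Lsm4, a subunit of the ring on U6 snRNA and of the cytoplasmic ring that promotes decapping, had signals of 7.21, 6.97 and 6.92 in wild-type, 6.87, 6.97 and 7.01 in Dgcr8 knockout and 8.21, 8.84 and 8.22 in Dicer knockout arrays, a change of 1.39 ± 0.16 (limma adjusted p = 0.000519). Cdc40, a factor of the second splicing step, had signals of 9.33, 9.38 and 9.46 in wild-type, 9.38, 9.23 and 9.31 in Dgcr8 knockout and 8.78, 8.54 and 8.79 in Dicer knockout arrays, a change of -0.69 ± 0.085 (0.000702). In both genes every Dicer knockout array lay outside the range of the other 6. Sf1, the branch point protein, changed by -0.35 (0.00300), and Usp39, of the tri-snRNP, by -0.32 (0.0101), and the other that fell was Snrpb2, a U2 snRNP protein named after its values were seen (-0.16).

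Of 49 tested other regulators of alternative splicing, 6 fell and 1 rose (14.3%, against 11.3% of all genes), with a median of -0.06. Rbms2, a single-stranded nucleic acid binding protein outside the families above despite its symbol, had signals of 8.11, 8.23 and 8.05 in wild-type, 8.09, 7.98 and 8.17 in Dgcr8 knockout and 9.87, 9.58 and 9.77 in Dicer knockout arrays. It was 3.05-fold higher in Dicer knockout (log2 change 1.61 ± 0.097; limma adjusted p = 7.36e-06). Ptbp3, a polypyrimidine tract binding protein, had signals of 10.27, 10.31 and 10.20 in wild-type, 10.23, 10.32 and 10.23 in Dgcr8 knockout and 9.60, 9.51 and 9.59 in Dicer knockout arrays, a change of -0.69 ± 0.055 (3.50e-05). Matr3, a nuclear matrix protein, changed by -0.36 (0.00756) and Taf15, an RNA-binding factor associated with transcription initiation, by -0.40 (0.00921). Of 11 tested genes of the exon junction complex and nonsense-mediated decay, 1 fell (9.09%, against 11.3% of all genes), with a median of 0.03. It was Smg1, the kinase of Upf1, at -0.38 (limma adjusted p = 0.0209). Smg1 lost its call without Dicer knockout replicate 3 (0.0604) or wild-type replicate 1 (0.0597), 2 (0.0607) or 3 (0.0816). It was also lost with arrays centred on their median (0.0569).

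**Figure D4:**
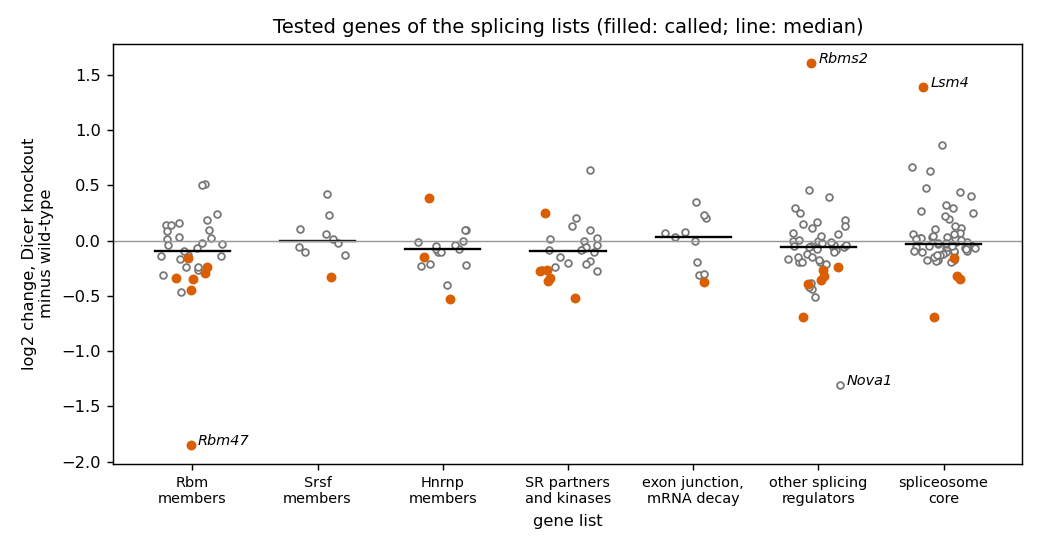
Log2 change from wild-type to Dicer knockout of each tested gene in the Rbm, Srsf and Hnrnp families and in 4 further splicing lists, with called genes filled and a line at each list's median. Each median lies between -0.10 and 0.03, and the changes past 1 in either direction are those of Rbm47, Rbms2, Lsm4 and Nova1. Nova1 was not called against wild-type, where the groups overlapped, but was called lower in Dicer knockout than in Dgcr8 knockout.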

How the data were processed

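Total RNA of 9 samples of mouse MII eggs (3 wild-type, 3 Dgcr8 knockout, 3 Dicer knockout) was hybridised to 1-colour arrays, per the labels. The authors deposited log2 values of each probe set after GCRMA, per the submitters' processing notes, which as used here hold neither a version nor settings. Changes are relative to the other genes on the array, so a shift common to all transcripts would not be seen. All 9 value columns were matched to samples by their labels, and 0 were left unmapped. The number of arrays limits the precision. Probe sets were named through the platform annotation. Their positions in the genome were not checked, so whether a probe set lies in the named gene or in a copy of it was not tested.

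Genes with a log2 signal of at least 4 on at least 3 of the 9 arrays were tested in R 4.3.3 with limma 3.58.1 (lmFit, then eBayes with trend and robust; statmod 1.5.0) on all 9 arrays, two-sided, with Benjamini-Hochberg adjustment over 17324 genes and a threshold of 0.05. Other settings tried were a floor of 6, no floor, quantile normalization, median centring, averaged probe sets and all probe sets with 1 symbol. Also tried were eBayes without the trend and robust options, the compared genotypes alone, array weights, the replicate number as a block, and leaving out each array. A fit of all named probe sets together, also those with several symbols, was added after the data were seen and served for single probe sets. The fit was tested on simulated data before use. Of planted log2 changes of 0.5, it recovered 55.2% in Dicer knockout and 58.2% in Dgcr8 knockout against wild-type. For planted changes of 1 these shares were 91% and 85.1%. The changes were planted in 200 of the 17324 genes, drawn at random and alike in both knockouts. The shares are therefore not those of the members, and their difference between the knockouts is not a result. The median absolute change of the members was 0.14 in Dicer knockout against wild-type. No change that small was planted, so such changes could be missed, at a rate that was not simulated.

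The members and the lists were chosen with earlier results of these data known. The genes named were Rbm47, each member called in any contrast, the 4 brightest and 2 dimmest of each family in wild-type, members whose probe sets differ in sign, and up to 4 called genes of each other list by adjusted p; others are marked where they appear. Promoter windows come from RefSeq (GRCm38.p6), with motifs searched on both strands.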

Additional observations from a re-analysis of the deposited data

How the results depend on the processing

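Of the 11 members called in Dicer knockout against wild-type, Rbm47, Hnrnpul1, Rbm26 and Rbm39 were called under each of the 19 alternatives, and none of the 11 changed sign under any. The 10 lower calls became 16 with quantile normalization and ranged from 6 to 9 when 1 array was left out, with 6 without wild-type replicate 1 or 3; the 1 higher call became 4 with a floor of 6, 2 with the mean of probe sets and 0 to 2 when 1 array was left out. The median change of the members was -0.121 with quantile normalization, -0.0516 with the mean of probe sets and -0.0794 to -0.0594 when 1 array was left out. For Dicer against Dgcr8 knockout, the 9 lower calls became 18 with quantile normalization (8 to 10 when 1 array was left out), the 1 higher call became 2 with a floor of 6, with no floor, with the mean of probe sets and with array weights (1 to 3 when 1 array was left out), and the median was -0.127 with quantile normalization (-0.0957 to -0.0586 when 1 array was left out). With quantile normalization 28.3% of members and 14.2% of all genes were called in Dicer knockout against wild-type. With a floor of 6, which leaves 10181 genes, the shares were 27.8% and 21.6%, and with the mean of probe sets 18.3% and 11.4%. With arrays centred on their median they were 13.3% and 9.13%, and with eBayes without the trend and robust options 13.3% and 10.4%. Without wild-type replicate 1 or 3, 10% of members were called, against 8.01% and 7.16% of all genes. Of the other splicing genes, the 16 lower calls became 31 with quantile normalization (8 to 17 when 1 array was left out) and the 3 higher calls became 8 with a floor of 6 (2 to 6). Dgcr8 knockout against wild-type gave 0 member calls throughout, with a median of -0.00824 to 0.0268 when 1 array was left out. Between the knockouts, quantile normalization called 31.7% of members and 16.6% of all genes. The shares were 24.1% and 25.4% with a floor of 6, and 17.7% and 11% with no floor. They were 18.3% and 13.4% with the mean of probe sets, and 20% and 12.9% with array weights. Why quantile normalization raised the lower calls was not tested. Whether the replicate numbers pair the arrays is not settled by these data. Deviations of same-numbered arrays correlated between -0.24 and 0.11, and those of others between -0.16 and 0.25. Between wild-type and Dicer knockout alone, same-numbered arrays correlated at 0.10, 0.04 and 0.11, and others between -0.14 and 0.05. With the replicate block, calls against wild-type came to 2 members higher and 9 lower in Dicer knockout, and those against Dgcr8 knockout to 2 higher and 8 lower. The block lost the calls of Rbm18 (adjusted p = 0.0782) and of Hnrnpll between the knockouts (0.0513) and gave one for Rbm3 against wild-type (0.0209). The 3 arrays a genotype limit what can be seen: 45 of the 60 members had a 95% interval within 0.5 of 0 in Dicer knockout against wild-type.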
